A study of Bos taurus with 71 samples.

Results

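Mid-jejunum and ileum of 42-day-old calves (D42) were compared in 9 of the 71 deposited samples, 5 from the mid-jejunum (animals 1 to 5) and 4 from the ileum (animals 2 to 5). The series profiled the gut of Holstein bull calves by RNA-Seq at birth and at D7, D21 and D42, with 1 library per tissue sample. The D42 calves of both regions had received colostrum after birth and then milk, with free access to calf starter, and no treatment was applied. The jejunum was taken at a set distance below the stomach and the ileum just before its junction with the caecum, and each segment was rinsed, frozen and ground, which means that every value came from a mixture of all cells of the segment. Samples with the same age and animal number came from the same calf, and so 4 of the 5 calves gave both regions.

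The ileum sample of animal 1 was left out, because only 2.66% of 1280 genes had the values that the study's own table of immune genes gives for that sample, against 97.0% to 99.9% in the other 9 samples of D42. On log2(CPM + 1) it correlated with the mid-jejunum samples at 0.927 to 0.961 and with the other ileum samples at 0.908 to 0.936. The 9 samples used correlated at 0.966 to 0.989 within the mid-jejunum, at 0.976 to 0.992 within the ileum and at 0.897 to 0.951 between the regions. The 17 files labelled distal jejunum were identical to ileum files and were not used.

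The jejunum digests and absorbs most of the nutrients of milk: its enterocytes take up fatty acids at the brush border, rebuild them into fat and export it on apolipoproteins. In young ruminants the wall of the ileum is instead lined by a continuous Peyer's patch, a lymphoid organ of densely packed follicles in which B cells divide and build the pre-immune repertoire, whereas the jejunum has separate small patches and a lamina propria rich in plasma cells that make IgA. The epithelium carries this IgA into the lumen with the polymeric Ig receptor and adds antimicrobial proteins, mucins and complement factors of its own.

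Of 14103 genes tested, 1718 (12.2%) were JE-enriched and 2260 (16.0%) were IL-enriched, meaning a fold change > 2 and FDR < 0.05 in limma, with Benjamini-Hochberg adjustment over all genes tested. Values are CPM, the counts per 1000000 mapped reads, rounded by the authors to whole numbers, and differences are mid-jejunum minus ileum on the log2(CPM + 1) scale, with their standard error (SE), which understates the change of genes at low CPM. The regions did not overlap in 2658 genes higher in the mid-jejunum (18.8%) and in 4033 genes higher in the ileum (28.6%). Symbols were at hand for 1775 of the tested genes, of which 267 (15.0%) were JE-enriched and 338 (19.0%) IL-enriched, and the counts of the gene groups described here are read against these last shares. The gene groups were chosen with earlier results of these data known, so this reading is a description and not a test. Dividing each sample by its median ratio to the others, an alternative scaling, moved the median difference of all genes from -0.13 to 0.03. It gave 2156 JE-enriched and 1800 IL-enriched genes, so that the share of calls higher in the mid-jejunum was 54.5% in place of 43.2%. The calls shared by both scalings, in the same direction, numbered 3518.

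**Figure D1:**
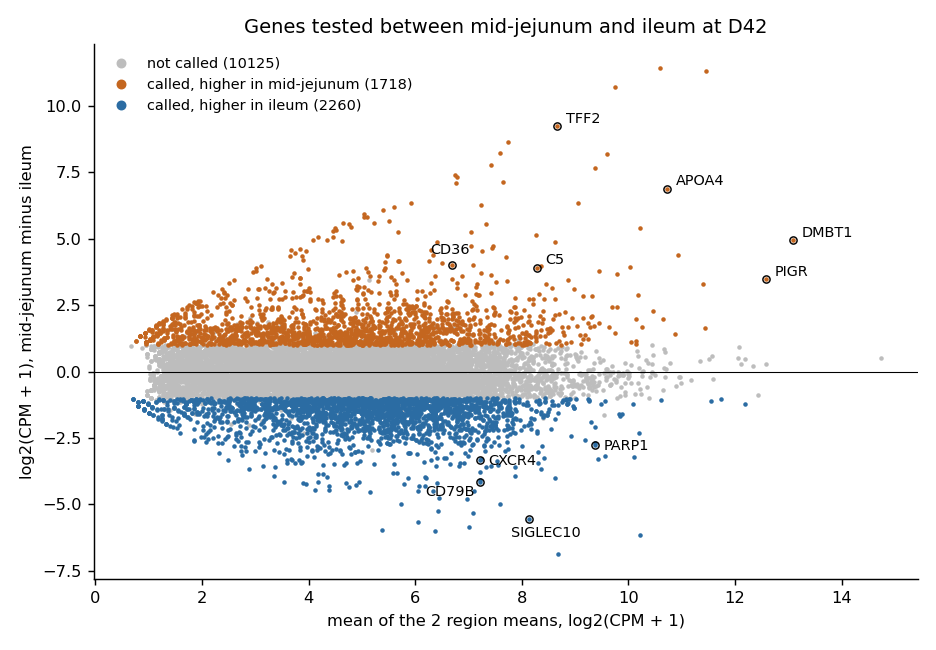
Difference between mid-jejunum and ileum at D42 (vertical axis, log2(CPM + 1), positive where the mid-jejunum was higher) against the mean level of the gene over both regions (horizontal axis, log2(CPM + 1)), 1 point per gene tested, with the called genes in colour. Of the genes marked, TFF2, listed at 0 in all ileum samples, lies highest at 9.23, APOA4 lies at 6.87 and SIGLEC10 lies lowest at -5.55. Genes without a symbol lie beyond this range on both sides, down to ENSBTAG00000010632 at -6.88.

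Genes of fat absorption were among the most JE-enriched. Of 16 tested members of the list, 11 were higher in the mid-jejunum and 2 in the ileum, with a median difference of 2.64 (1.66 without the 2 genes listed at 0 in all ileum samples) beside -0.13 for all genes. APOA4, an apolipoprotein that the gut places on newly made chylomicrons, was at 3842, 2427, 849, 5071 and 4349 CPM in mid-jejunum animals 1 to 5 and at 5, 5, 43 and 211 CPM in ileum animals 2 to 5. Its lowest jejunal value, in animal 3, was thus still above the highest ileal value, in animal 5, and the difference was 6.87 (SE 1.01, FDR 0.00024). APOC3 differed by 6.33 (SE 0.81, FDR 9.9e-05), APOA1, the main protein of high density lipoprotein, by 4.37 (SE 0.91) and APOB, the scaffold of the chylomicron, by 3.68 (SE 0.62). CD36, a fatty acid transporter of the brush border, was at 143, 196, 206, 201 and 220 CPM in the mid-jejunum and at 7, 8, 14 and 17 CPM in the ileum, a 16.3-fold difference with little spread inside either region.

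For APOC2, a cofactor of lipoprotein lipase, and SOAT2, which esterifies cholesterol in enterocytes, every ileum sample was listed at 0, so no fold is given. APOC2 had 27 to 132 CPM and SOAT2 15 to 45 CPM in the mid-jejunum. Among the regulators, PPARG was JE-enriched (21 to 67 against 2 to 5 CPM), and PPARA passed the threshold by a small margin (1.03). PPARA was not called without mid-jejunum animals 3 or 5 or ileum animals 2 or 3, in fits that each left out 1 sample and gave 0.78 to 1.22. The 2 IL-enriched members act elsewhere in lipid handling: ABCA1, which exports cholesterol to high density lipoprotein, was at 10 to 24 CPM in the mid-jejunum and 153 to 203 CPM in the ileum (-3.24, SE 0.23), and NR1H4, the nuclear receptor for bile acids, at 7 to 11 against 11 to 51 CPM (-1.53, SE 0.40).

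Brush border genes were split. Of 21 identifiers tested, 9 were JE-enriched, 1 was IL-enriched and 11 were not called, with a median difference of 0.49. CUBN, the cubilin receptor that takes up vitamin B12 bound to intrinsic factor, was at 163, 164, 106, 131 and 137 CPM in the mid-jejunum and at 21, 1, 13 and 5 CPM in the ileum (4.16, SE 0.57, FDR 0.00015), and AMN, the partner that anchors it to the membrane, at 59 to 181 against 4 to 31 CPM (2.50, SE 0.55). The calcium channel TRPV6 (3.15, SE 0.39), the neutral endopeptidase MME (2.17, SE 0.32) and both identifiers of the iron transporter SLC11A2 (1.66 and 2.36) were JE-enriched as well. ALPL, tissue-nonspecific alkaline phosphatase, was the IL-enriched member (-1.97, SE 0.56). None of the 3 identifiers of the peptidase DPP4 was called, with differences of -0.75, 0.17 and 0.14, and reads of identifiers that share a symbol may have been divided between them.

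Beyond the lists, UGT1A1, which conjugates bilirubin and other small molecules, was at 298, 295, 311, 306 and 264 CPM in the mid-jejunum and at 2, 2, 4 and 4 CPM in the ileum (6.25, SE 0.18, FDR 3.8e-08). PDX1, a transcription factor of the proximal gut and pancreas, had 14 to 56 CPM in the mid-jejunum and the mucosal chemokine CXCL17 24 to 93 CPM, and both were listed at 0 in all 4 ileum samples. These were among the 8 genes with a symbol that had the largest differences. ENSBTAG00000017020, for which no symbol was at hand, had 940 to 5004 CPM in the mid-jejunum and was listed at 0 in the ileum. In all, 98 called genes were listed at 0 in every ileum sample and 43 in every mid-jejunum sample.

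**Figure D2:**
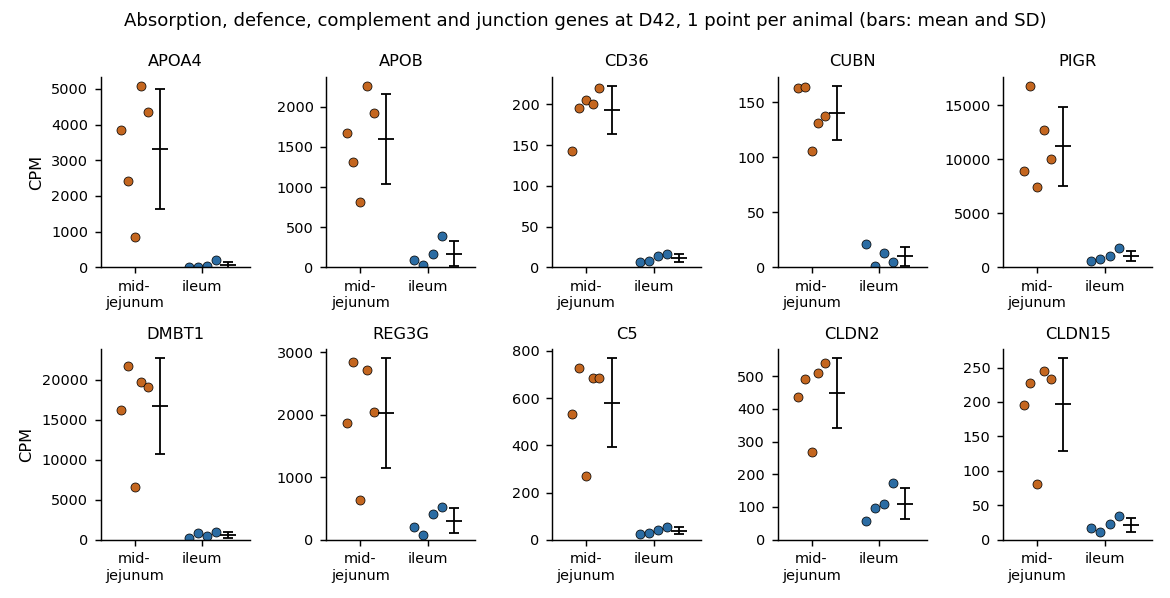
CPM of 10 genes in each D42 sample (vertical axis from 0, a scale per gene), with 1 point per animal, mid-jejunum at left and ileum at right, and the mean with its SD beside the points. No ileum sample reaches a mid-jejunum sample for any of the 10 genes, and mid-jejunum animal 3 is the lowest of its group for 9 of them (APOA4 849 CPM, REG3G 636 CPM), CD36 being the exception.

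The lists with the most negative medians were those of B cell genes. The 3 lists of B cell receptor and surface markers, B cell signalling and B cell transcription factors held 38 tested genes, of which 35 were IL-enriched and 0 JE-enriched by limma. The medians were -2.89, -2.68 and -2.70 on the log2 scale. CD79A and CD79B, the signalling chains of the B cell receptor, set the pattern. CD79A was at 59, 25, 18, 43 and 23 CPM in the mid-jejunum and at 437, 324, 347 and 232 CPM in the ileum (-3.38, SE 0.33, FDR 2.1e-05). CD79B was at 37, 8, 8, 16 and 15 CPM against 371, 262, 288 and 188 CPM (-4.14, SE 0.40, FDR 1.9e-05). In both genes the lowest ileum sample lay far above the highest mid-jejunum sample, which was that of animal 1. Because whole tissue was measured, fewer B cells and less of these RNAs per B cell cannot be told apart.

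VPREB3, a chaperone of the pre-B cell receptor, differed by -4.48 (SE 0.52), MS4A1, which encodes CD20, by -4.07 (SE 0.53), and CR2, the complement receptor of follicular dendritic cells and B cells, by -3.65 (SE 0.43). SIGLEC10, an inhibitory lectin of B cells outside the lists, had the largest negative difference of all genes with a symbol. It was at 25, 3, 8, 11 and 15 CPM in the mid-jejunum and at 784, 484, 541 and 370 CPM in the ileum (-5.55, SE 0.46, FDR 1.1e-05). The signalling list was IL-enriched as a whole, 12 of 12, and its called members included the kinase BLK (-2.97), the adaptors BLNK (-3.56) and SH3KBP1 (-3.32) and the inositol phosphatase INPP5D (-3.03). Of the 12 transcription factors, IRF8 alone missed the fold threshold (-0.84, FDR 0.00015), while POU2F2 (-4.00), IKZF3 (-3.97), BCL6 (-3.77), the regulator of the germinal centre, TCF3 (-2.98) and EBF1 (-2.66) were IL-enriched.

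The lists also held immunoglobulin genes. IGHM, the heavy chain of IgM, was at 2794, 2574, 904, 3942 and 1757 CPM in the mid-jejunum and at 5220, 4418, 4225 and 3682 CPM in the ileum, so that the regions overlapped. Its difference of -1.02 (SE 0.37, FDR 0.036) was called and is among the 35, but it was not called without mid-jejunum animals 3 or 5 or ileum animals 2, 3 or 4 (-1.24 to -0.71 over the 9 fits without a sample), nor with median-ratio scaling (-0.86). For IGLL1, annotated as a surrogate light chain, the values were 6388, 7353, 1337, 9667 and 2471 CPM against 3422, 3100, 3232 and 2432 CPM (0.51, SE 0.53, FDR 0.42). CD81, which is not limited to B cells, was also not called (-0.21, FDR 0.17).

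**Figure D3:**
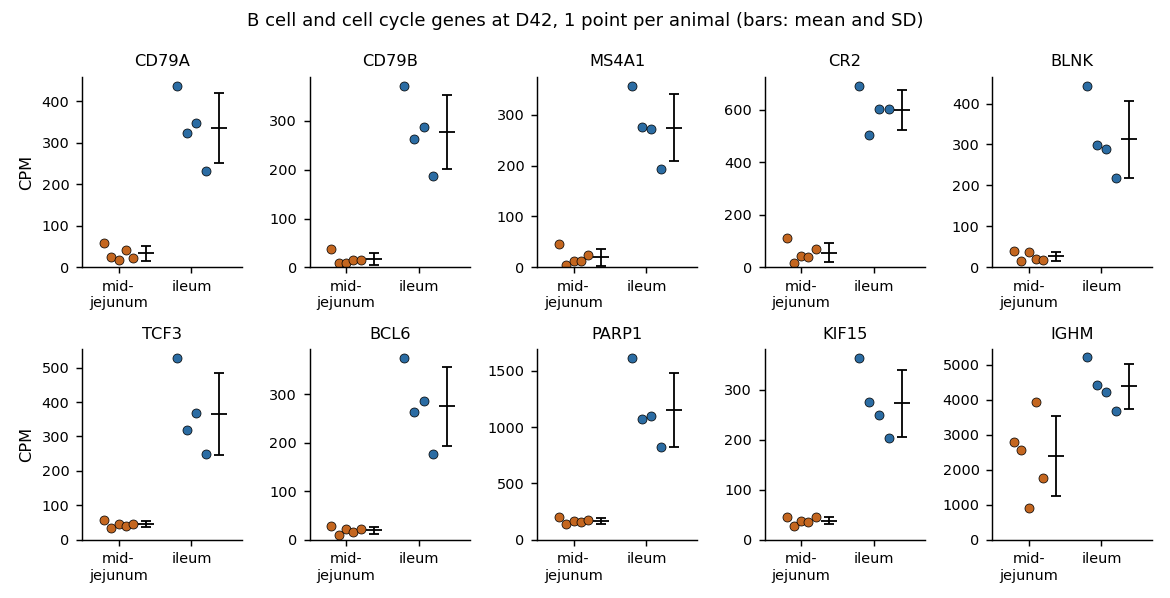
CPM of 10 B cell and cell cycle genes in each D42 sample (vertical axis from 0, a scale per gene), with 1 point per animal and the mean with its SD beside the points. The 4 ileum samples lie above the 5 mid-jejunum samples in 9 panels, while in the IGHM panel mid-jejunum animal 4 (3942 CPM) reaches into the ileal range of 3682 to 5220 CPM.

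Cell cycle genes followed the ileum as uniformly as the B cell genes. Of 18 mitosis genes 17 were IL-enriched, with a median of -1.67, and of 15 genes of DNA replication and repair all 15 were, with a median of -2.33. PARP1, a sensor of DNA breaks, was at 205, 136, 164, 155 and 171 CPM in the mid-jejunum and at 1617, 1075, 1097 and 828 CPM in the ileum (-2.76, SE 0.19, FDR 5.3e-06). The mitotic kinesin KIF15 was at 28 to 45 against 204 to 364 CPM (-2.80, SE 0.19). Neither gene overlapped between the regions, and ileum animal 2 had the highest and ileum animal 5 the lowest ileal value of both. The replication factors MCM2 (-2.11, SE 0.17) and CDC6 (-2.50, SE 0.23), the exonuclease EXO1 (-2.66), BRCA2 (-2.66), CENPE (-2.45), NUSAP1 (-2.37), AURKB (-1.98) and BIRC5 (-1.20) were IL-enriched too. The exception was PLK1 (-0.54, FDR 0.036), at 146 CPM in mid-jejunum animal 3, above 3 of the 4 ileum samples.

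The follicle list was split, with 6 of 12 genes higher in the ileum, 1 higher in the mid-jejunum, 5 not called and a median of -1.28. CXCR4, the receptor that holds B cells in the dark zone of a follicle, was at 17 to 45 CPM in the mid-jejunum and 209 to 347 CPM in the ileum (-3.32, SE 0.26), and the adhesion molecule VCAM1 at 49 to 144 against 300 to 572 CPM (-2.29, SE 0.35). GP2, a receptor for bacteria on M cells, the epithelial cells that sample antigen above follicles, was at 29, 255, 14, 17 and 14 CPM in the mid-jejunum and at 566, 375, 405 and 246 CPM in the ileum (-3.60, SE 0.76, FDR 0.0022). Mid-jejunum animal 2 thus reached the ileal range of GP2 while its B cell markers were low (CD79B 8 CPM). CXCL13, which attracts B cells to follicles, differed by -2.05 (SE 0.68, FDR 0.025), a call lost without mid-jejunum animals 2 or 3 or ileum animals 2, 4 or 5 (-2.57 to -1.68 over the 9 fits without a sample), and CCL19 was not called (-0.73, FDR 0.27). TNFRSF11B, a decoy receptor for RANKL, was JE-enriched (1.93, SE 0.37).

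Few genes of T cells were called. Of 17 identifiers tested, 0 were JE-enriched and CD4 alone was IL-enriched by limma, and the median difference was -0.23 (-0.07 with median-ratio scaling). CD3E, a chain of the T cell receptor complex, was at 97, 60, 76, 67 and 46 CPM in the mid-jejunum and at 38, 79, 63 and 92 CPM in the ileum (0.05, SE 0.27, FDR 0.87), and CD3D differed by -0.08 (SE 0.32, FDR 0.85). The regions overlapped fully for both genes. CD4 was at 11 to 24 against 23 to 43 CPM (-1.03, SE 0.23, FDR 0.0035), was not called without mid-jejunum animals 2, 3 or 5 or ileum animals 4 or 5 (-1.19 to -0.90 over the fits without a sample), nor with median-ratio scaling (-0.87). Of 9 identifiers of intraepithelial and cytotoxic cells only NKG7 was IL-enriched (-1.06, SE 0.17), and not without mid-jejunum animal 5 (-0.98), ileum animal 3 (-0.93) or with median-ratio scaling (-0.90). With the calf as a block 2 were called. Over the fits without a sample, 0 to 3 of these 9 and 0 to 2 of the 17 T cell identifiers were IL-enriched. Without ileum animal 2 the calls included CD8A, CTSW and the GZMA identifier ENSBTAG00000021958. ITGAE, the integrin that ties T cells to the epithelium, differed by -0.32 (FDR 0.25), and the 2 identifiers of the granzyme GZMA by -0.59 and 0.02.

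Of 14 myeloid genes, 5 were IL-enriched and 0 JE-enriched by limma. CD14, the lipopolysaccharide co-receptor, was at 32 to 49 CPM in the mid-jejunum and at 84, 238, 107 and 122 CPM in the ileum (-1.75, SE 0.27), and CD68, a lysosomal protein of macrophages, at 28 to 46 against 110 to 164 CPM (-1.78, SE 0.16). The costimulatory CD86 (-2.22, SE 0.17), which B cells carry as well, the scavenger receptor CD163 (-1.94, SE 0.30) and CYBB were also IL-enriched. The remaining 9 of 14 were not called, among them the 3 chains of C1q (-0.04, -0.50 and -0.25), a product of tissue macrophages. The list's median was -0.78.

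Of 14 genes of the IgA pathway, 5 were higher in the mid-jejunum, 3 in the ileum and 6 were not called, with a median of 0.33. PIGR, the polymeric Ig receptor of the epithelium, was at 8963, 16804, 7484, 12754 and 9994 CPM in the mid-jejunum and at 625, 770, 1048 and 1757 CPM in the ileum (3.47, SE 0.33, FDR 2e-05), 11.1-fold higher with no overlap. CCL25 (2.73, SE 0.45), the chemokine that draws lymphocytes to the small intestine, CCL28 (2.16, SE 0.16), which draws IgA plasma cells, and TNFSF13 (2.06, SE 0.35), the survival factor APRIL, were JE-enriched too. IGJ, the J chain of plasma cells, was at 3144, 4035, 726, 4503 and 1853 CPM in the mid-jejunum and at 685, 897, 914 and 1130 CPM in the ileum. Animals 1, 2, 4 and 5 lay above all ileum samples, whereas animal 3 lay inside the ileal range. The difference of IGJ was 1.42 (SE 0.48, FDR 0.027) and was not called with the calf as a block (1.32, FDR 0.0541) or without mid-jejunum animals 1, 2 or 4 or ileum animals 2, 3 or 4 (1.19 to 1.84 over the fits without a sample). ITGA4 (-2.87, SE 0.17), an integrin chain of homing lymphocytes, FCAMR (-2.58) and PRDM1 (-1.08, but -0.91 and not called with median-ratio scaling and -0.99 without mid-jejunum animal 2) were IL-enriched. The genes not called were MZB1 (0.66), CD38 (-0.90), CCR10 (0.99), CCR9 (-0.01), ITGB7 (-0.35) and MADCAM1 (-0.35).

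Complement genes were JE-enriched in 11 of 22 cases and IL-enriched in 1, with a median of 1.05. C5, the precursor of the anaphylatoxin C5a and of the lytic complex, was at 531, 727, 272, 686 and 687 CPM in the mid-jejunum and at 25, 27, 42 and 56 CPM in the ileum (3.91, SE 0.32, FDR 1.1e-05), without overlap. The central component C3 was at 3808, 4621, 1951, 5426 and 4585 CPM against 415, 2341, 1280 and 1865 CPM (1.64, SE 0.49, FDR 0.014), and here ileum animal 3 exceeded mid-jejunum animal 3. The soluble inhibitors C4BPA (2.47, SE 0.24) and CFI (2.14, SE 0.31) were JE-enriched, as were the terminal components C6 (2.43), C9 (1.68) and C8G (1.50) and, in the alternative pathway, CFP (1.79), CFB (1.69) and CFD (1.55). The initiating proteases C1R and C1S differed by -0.05 and -0.17 (FDR 0.92 and 0.70). The receptor for C5a, C5AR1, carried by myeloid cells, was IL-enriched (3 to 7 against 10 to 19 CPM, -1.33, SE 0.25).

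Secreted defence proteins showed the same direction, with 8 of 12 identifiers JE-enriched, 1 IL-enriched and a median of 1.88 (1.77 without TFF2). DMBT1, a scavenger glycoprotein that agglutinates bacteria, was at 16222, 21753, 6573, 19768 and 19131 CPM in the mid-jejunum and at 175, 807, 461 and 999 CPM in the ileum (4.93, SE 0.52, FDR 3.3e-05). REG3G, a lectin that kills Gram-positive bacteria, was at 1877, 2853, 636, 2712 and 2044 CPM against 203, 80, 411 and 532 CPM (2.88, SE 0.58, FDR 0.0018). TFF2, a trefoil peptide of mucus, was at 185, 1151, 1794, 510 and 390 CPM in the mid-jejunum and listed at 0 in all 4 ileum samples. None of these genes overlapped between the regions, and in mid-jejunum animal 3 DMBT1 and REG3G were lowest but TFF2 highest. The IL-enriched gene was DUOX2, the epithelial source of hydrogen peroxide, at 4 to 31 CPM against 32 to 248 CPM (-2.91, SE 0.72, FDR 0.0057).

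Among tight junction genes 4 of 11 were JE-enriched and 0 IL-enriched by limma, with a median of 0.94. CLDN15, which forms pores for cations, was at 195, 227, 81, 245 and 234 CPM in the mid-jejunum and 17, 11, 23 and 34 CPM in the ileum (3.16, SE 0.38), CLDN2, also a pore-forming claudin, at 269 to 540 against 58 to 172 CPM (2.09, SE 0.30), and CLDN7 at 383 to 517 against 79 to 201 CPM (1.74, SE 0.25). CXADR, a junctional adhesion molecule, was the other called gene (1.15, SE 0.31, and 0.86 and not called without ileum animal 2). Among the other claudins, CLDN1 differed by -0.61 (SE 0.26, FDR 0.061), CLDN3 by 0.91 (SE 0.33, FDR 0.034), CLDN4 by 1.14 (SE 0.54, FDR 0.093) and CLDN5 by 0.94 (FDR 0.0056), and none of these was called. CLDN3 was called with median-ratio scaling (1.08) and in 3 of the 9 fits without a sample, and CLDN4 without mid-jejunum animal 3 (1.48, FDR 0.025). CLDN5 was called with median-ratio scaling (1.10), with the calf as a block (1.02, FDR 0.0022) and in 4 of the 9 fits without a sample. Claudins are related in sequence and may share reads.

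Sensors of microbes were split, with 2 of 12 identifiers JE-enriched, 4 IL-enriched and a median of -0.16 (0.00 with median-ratio scaling). TLR2, the receptor for bacterial lipopeptides, was at 5, 6, 19, 5 and 4 CPM in the mid-jejunum and at 13, 32, 19 and 19 CPM in the ileum (-1.45, SE 0.40, FDR 0.01), and TLR4, the receptor for lipopolysaccharide, at 7, 8, 34, 7 and 9 CPM against 22, 45, 24 and 26 CPM (-1.34, SE 0.43, FDR 0.021). In both genes mid-jejunum animal 3 was the sample that reached the ileal range, and without ileum animal 3 TLR4 was no longer called (-1.12, FDR 0.064). NAIP, a sensor of flagellin, was IL-enriched (-1.70, SE 0.41), and TICAM1, an adaptor of TLR3 and TLR4, was JE-enriched (1.50, SE 0.24). NLRP3 was not called (-0.68, FDR 0.22), but it gained the call in at least 1 of the fits without a sample. The 2 identifiers that carry the symbol PYCARD, the inflammasome adaptor, differed in opposite directions (-1.75 and 1.74), so no direction is given for this gene. Of 21 interferon-response genes, with a median of 0.07, 1 was called, CMPK2 (1.11, SE 0.39, FDR 0.031), which was not called without mid-jejunum animals 1, 3 or 5 or ileum animals 2, 3 or 4 (0.83 to 1.41 over the fits without a sample). ISG15 (1.07, FDR 0.18) and IFIT1 (-0.45, FDR 0.57) spread widely inside both regions, as ISG15 at 37 to 290 and 15 to 102 CPM shows.

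Of 14 genes of antigen presentation, 1 was higher in the mid-jejunum, 4 in the ileum and 9 were not called, with a median of -0.12 (0.05 with median-ratio scaling). CIITA, the master regulator of MHC class II, was at 26 to 51 CPM in the mid-jejunum and 141 to 223 CPM in the ileum (-2.09, SE 0.22), and the thiol reductase IFI30 (-1.63, SE 0.18), the invariant chain CD74 (-1.23, SE 0.23) and the peptidase ERAP2 (-1.04, SE 0.13), which trims peptides for class I, were IL-enriched too. ERAP2 was not called with median-ratio scaling (-0.87) or without mid-jejunum animals 2 or 4 (-1.13 to -0.97 over the fits without a sample). The protease CTSL was JE-enriched (1.53, SE 0.19). HLA-DMB (-0.97), LGMN (-0.92) and CTSS (-0.08), which act in the class II pathway, were not called. The class I genes B2M (0.29, SE 0.30, FDR 0.43) and TAP1 (-0.16, FDR 0.72) were not called.

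**Figure D4:**
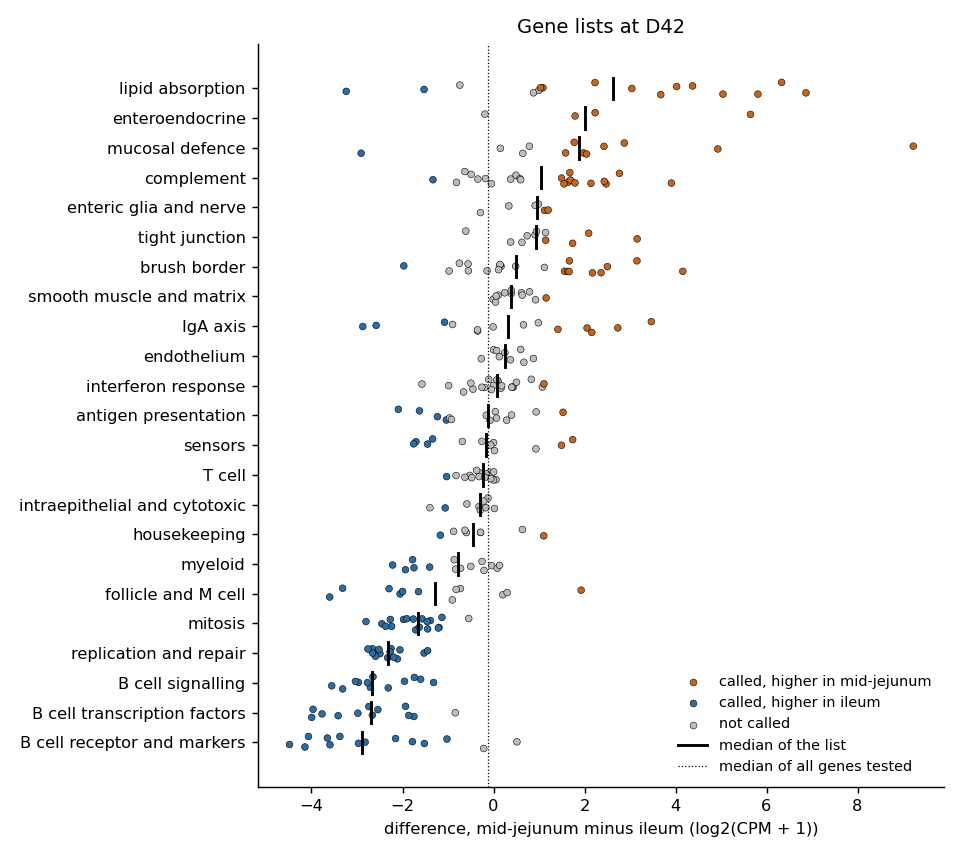
Difference between mid-jejunum and ileum at D42 (horizontal axis, log2(CPM + 1)) of the tested members of 23 gene lists, 1 point per identifier, with called genes in colour, a black bar at the median of each list and a dotted line at the median of all genes (-0.13). The 3 B cell lists, replication and repair, and mitosis lie at the ileal end with medians of -2.89 to -1.67, and lipid absorption has the highest median at 2.64.

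Of the 4 genes placed in the enteroendocrine list, which may also be expressed by other cells of the wall, 3 were JE-enriched. CCK, the hormone released by fat in the proximal gut, was at 30, 33, 323, 30 and 29 CPM in the mid-jejunum and listed at 0 in the ileum, with animal 3 far above its group. GHRL, which encodes ghrelin, was likewise listed at 0 in the ileum (1 to 15 CPM in the mid-jejunum), and its call was lost with a pseudocount of 5. GAL differed by 1.79 (SE 0.38) and GCG, the precursor of the ileal hormone GLP-1, by -0.19 (SE 0.57, FDR 0.79).

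Few genes of the other cell types of the wall were called. Smooth muscle and matrix genes had a median of 0.39 with 1 of 12 called, the muscle filament DES (1.16, SE 0.33, FDR 0.012). DES was highest in mid-jejunum animal 3 (2713 CPM, against 811 to 2145 CPM in the other animals and 581 to 779 CPM in the ileum) and was not called without that animal (0.93). TPM1 was not called (0.61, FDR 0.054), and with the calf as a block 3 of the 12 were called, all higher in the mid-jejunum. Of 9 endothelial genes 0 were called by limma (CDH5 0.00, VWF -0.27), while 3 of them had FDR < 0.05 below the fold threshold. Of 6 genes of enteric glia and nerve the low-level GAP43 (1.12) and CDH19 (1.20, but 0.99 and not called without mid-jejunum animal 3) were JE-enriched, and 4 were with the block. Among housekeeping genes HPRT1 was IL-enriched (-1.17, SE 0.23) and GAPDH was not called (-0.29, FDR 0.074). The 2 identifiers of ACTB differed in opposite directions, so no direction is given for this gene. The identifier at lower CPM was called (1.10, but 0.92 to 0.98 and not called without mid-jejunum animals 3 or 5 or ileum animal 3). The other, at 3362 to 4608 CPM in the mid-jejunum and 6473 to 7801 CPM in the ileum, missed only the fold threshold (-0.88, FDR 0.0017).

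Markers chosen for each cell type were summed per sample to show the make-up of the segments. The 9 identifiers of 7 enterocyte markers summed to 3913 to 15515 CPM in the mid-jejunum and to 274 to 1903 CPM in the ileum, and the 6 B cell markers to 73 to 357 and 1599 to 2396 CPM. The 5 macrophage markers, of which 3 were called, summed to 199 to 305 CPM and to at least 476 CPM. Of the 14 myeloid genes, however, 5 were IL-enriched and 9 were not called, among them C1QA (-0.04), MSR1 (0.08) and SIGLEC1 (0.13). The macrophage sum therefore does not show that the ileum held more macrophages. The sums of T cell markers (100 to 203 and 96 to 214 CPM) and endothelial markers (155 to 278 and 168 to 274 CPM) overlapped. Plasma cell markers summed to 758 CPM in mid-jejunum animal 3, to at least 1893 CPM in the other mid-jejunum samples and to 722 to 1182 CPM in the ileum, those of glia and nerve to 10 to 22 and 4 to 6 CPM and those of enteroendocrine cells to 42 to 388 and 11 to 39 CPM. Of the defining markers only CCK and GHRL were at 0 throughout a region, the ileum. Mid-jejunum animal 3 had the lowest enterocyte sum and, at 10608 CPM against 3937 to 7323 CPM in the others, the highest sum of muscle and fibroblast markers (3395 to 4892 CPM in the ileum), and its part in the results was not tested beyond leaving it out. Without it, 11 lipid absorption, 34 B cell, 32 cell cycle and 11 complement genes were called in the direction given here, against 11, 35, 32 and 11 with it.

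Across the libraries, 14448 to 15121 genes had a value of at least 1 (mid-jejunum minus ileum 232.9 genes, p = 0.159, two-sided exact permutation test, n = 5 and 4). The 10 most abundant genes took 7.79% to 12.8% of the total in the mid-jejunum and 6.46% to 7.47% in the ileum. The regions did not overlap in this share, and their means differed by 3.64 percentage points (p = 0.0159 in the same exact permutation test, the smallest it can give, which takes the 9 samples as independent). Within the 4 calves that gave both regions the share was higher in the mid-jejunum in 4 of 4, by 3.73 points on average (SD 2.12), where an exact sign-flip permutation test cannot go below p = 0.125 and gave that value. The part of this difference in the results was not tested beyond the median-ratio scaling.

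**Figure D5:**
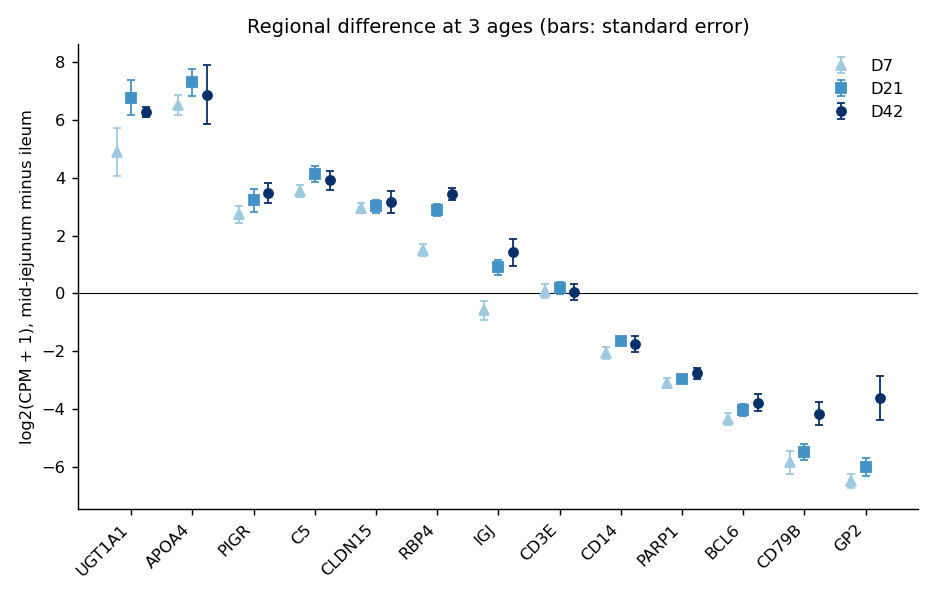
Difference between mid-jejunum and ileum (vertical axis, log2(CPM + 1)) of 13 genes at D7, D21 (5 animals per region each) and D42 (5 and 4 animals), with bars of 1 standard error. RBP4 has its largest difference at D42 (3.43, against 2.87 at D21), while IGJ lies at -0.57 at D7 and at 1.42 at D42.

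Whether the regional difference at D42 differed from that at D7 or at D21 was tested with an interaction of region and age. The D7 calves were fed milk without calf starter, whereas the D21 and D42 calves had free access to starter. Age and diet therefore cannot be told apart between D42 and D7. A gene that was not called is not shown to have had the same difference at both ages. Against D7, 2 of 14215 genes were called (0.0141%), and 1524 had an unadjusted p under 0.05, where 711 is 5% of the genes tested. Against D21, 0 of 14204 genes were called (0.0%), and 989 had an unadjusted p under 0.05, where 5% is 710. RBP4, which carries retinol in plasma, had a median of 31 CPM in the mid-jejunum and 10 CPM in the ileum at D7, of 41 and 6 CPM at D21, and of 87 and 6.5 CPM at D42. Its regional difference was thus 1.93 larger at D42 than at D7 (SE 0.31, FDR 0.0499), a call just inside the threshold. The other gene, ENSBTAG00000015356, chosen after its values were seen, had 14 and 13 CPM at D7 and 22 and 4 CPM at D42 (interaction 1.87, SE 0.25, FDR 0.0091). Neither was called with the calf as a block, where 0 genes were, or with ileum animal 1 added.

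For 83 of the 84 called genes that the naming rule selected, the differences at D7 and D21 had the direction of D42. The rule took many of them for large differences at D42, and the share over all called genes is not given. Direction alone was counted, and some of the differences at D7 were small (CDH19 0.05, FDR 0.90, and GAP43 0.17, FDR 0.60, limma). UGT1A1 differed by 4.88 and 6.76, C5 by 3.54 and 4.12, PIGR by 2.73 and 3.21, PARP1 by -3.09 and -2.95 and BCL6 by -4.32 and -4.02 at D7 and D21. Of the 84 genes called among those the naming rule selected, IGJ was the exception, at -0.57 (SE 0.33) at D7, 0.90 (SE 0.26) at D21 and 1.42 at D42, though its interaction with D7 of 1.99 was not called (FDR 0.31). CD79B differed by -5.83, -5.48 and -4.14, MS4A1 by -6.25, -5.77 and -4.07 and GP2 by -6.47, -5.99 and -3.60 at D7, D21 and D42. None of these 3 interactions was called (FDR 0.38, 0.37 and 0.28 against D7 and 0.67 for each against D21), so neither a change with age nor its absence is shown for them.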

How the data were processed

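Libraries were made from total RNA of mid-jejunum and ileum with an mRNA preparation kit, 1 per sample, and groups and animal numbers came from the sample labels. The authors called bases with CASAVA 1.8, aligned reads to UMD3.1 with TopHat2 2.0.10 and used htseq-count for the reads of each Ensembl gene (HTSeq, version not given in the sources used here). As deposited by the authors, each value is a score, namely CPM rounded to a whole number, with file totals of 970214 to 984626. The study states a mean depth over its libraries, but the depth of each sample is unknown. No counting interval is therefore given, and the smallest step is 1 CPM. The edgeR test of the authors needs read counts and was not used.

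Genes that reached 2 CPM in 50% or more of a group's samples, in either group, were tested on log2(CPM + 1) with limma 3.58.1 (lmFit, eBayes with trend) in R 4.3.3, with only the groups compared, and genes were called at FDR < 0.05 and fold change > 2. Interactions of region and age used 19 samples each, and library measures used two-sided exact permutation tests (scipy 1.17.1). The same-numbered samples came from the same calf, and their deviations from the group means correlated at 0.141, 0.118, 0.131 and 0.0767 in animals 2 to 5. A fit with the calf as a block over these 4 calves (8 samples) was an alternative. The other alternatives were other filters, pseudocounts of 0.1 and 5, median-ratio scaling, FDR alone, 3 ages in 1 fit, ileum animal 1 added and each sample left out.

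The members and the 23 gene lists were chosen with earlier results of these data known. The naming rule took the first 2 members of each list and its 3 called members with the largest difference, the 8 called genes with a symbol with the largest difference in each direction and no overlap, 2 identifiers without a symbol in each direction, the genes that the study names for a regional difference and the called interactions. Other list members in the text were chosen after their values were seen. Symbols came from the study's supplementary tables, since the files list identifiers only. No sequence or position is given, and some list members are not reported here by name.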

Additional observations from a re-analysis of the deposited data

Results flagged for a closer look

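Among 211 groups of 4 or 5 samples whose values differed, 21 held 1 sample far from the others by Dixon's ratio (critical value 0.829 for 4 samples and 0.71 for 5), a rule that chance meets in about 5% of groups. Of these, 7 concerned mid-jejunum animal 3, which was high for CCK (323 CPM), TAP1 (440 CPM), TLR4 (34 CPM), TLR2 (19 CPM) and CDH19 (17 CPM) and low for CCL25 (272 CPM) and PDX1 (14 CPM). Mid-jejunum animal 1 was high for B cell genes, with CD79B at 37 CPM, BLK at 18 CPM, INPP5D at 96 CPM and CXCL13 at 94 CPM. It was also high for ENSBTAG00000010632 (70 CPM) and ENSBTAG00000016881 (88 CPM), the IL-enriched genes without a symbol that had the largest differences. Mid-jejunum animal 2 was high for GP2 (255 CPM) and GHRL (15 CPM), and mid-jejunum animal 5 for BRCA2 (30 CPM).

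In the ileum, animal 5 was high for APOC3 (65 CPM) and CIITA (223 CPM) and low for GAL (1 CPM). Ileum animal 2 was high for DPP4 (ENSBTAG00000012376, 8 CPM), and ileum animal 3 was low for AMN (4 CPM). The regional difference at D42 exceeded that at D7 for RBP4 by 1.93 and for ENSBTAG00000015356 by 1.87 on the log2 scale, by the interaction of region and age.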

How the results depend on the processing

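None of the calls of the 109 identifiers selected by the naming rule changed direction under the alternatives run, but some calls were lost. With ileum animal 1 added 16 lost the call, among them CUBN, GP2, DUOX2 and NAIP, and with a pseudocount of 5 it was lost by 6. In the fits that left out 1 sample, 9 lost the call in at least 1 fit and 4 gained it. JE-enriched genes numbered 1080 with a pseudocount of 5, 1080 with ileum animal 1 added and 3519 with FDR alone, against 1718, and IL-enriched genes numbered 4936 with FDR alone, against 2260. Leaving out 1 sample at a time gave 1484 to 1949 JE-enriched and 2094 to 2471 IL-enriched genes. The replicate block, with the calf as the block, gave 1821 and 2297, and of the genes named by rule IGJ alone lost its call. With the calf as the block, added after seeing the data, the share of the 10 most abundant genes differed by 3.73 points (exact permutation test, p = 0.125, the smallest possible). Median-ratio scaling gave 2156 and 1800, so that more genes were JE-enriched than IL-enriched. The interaction with D7 was called for 1 gene with median-ratio scaling, 5 genes with a pseudocount of 0.1, 0 genes with ileum animal 1 added, 0 genes with the block and 1 to 5 genes without 1 sample, against 2. The causes were not tested. The list members called numbered 121 (ileum animal 1 added) to 197 (FDR alone), against 157. The depth of each sample could not be assessed, and differences of 1 CPM are within the rounding.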
